A study of Mus musculus with 20 samples.

Results

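The comparison described here is of mouse embryos at embryonic day 12.5 (E12.5) that lack both copies of Ptdsr (Ptdsr-/-) with embryos that carry both normal copies (Ptdsr+/+). It was measured on 12 of the 20 arrays of the series, those labelled E12.5 and numbered 1 to 11 and 13. Each was a DNA microarray read in 2 colours, with labelled total RNA of Ptdsr-/- embryos in 1 channel and of a pool of 6 Ptdsr+/+ control animals in the other. The dyes were swapped, with the mutant RNA in the red dye Cy5 on arrays 1, 2, 5, 6, 9 and 10 (the Cy5 orientation) and in the green dye Cy3 (the Cy3 orientation) on arrays 3, 4, 7, 8, 11 and 13. E12.5 is the only age for which the submitters state biological replicates, and the sources used here name neither the mutant allele, the strain nor the arrays that share an embryo. The pool was present on every array and counts as 1 control sample, so its own spread is left out of all tests, and p-values are too small where arrays share an embryo. In whole embryos, fewer cells of a type and less RNA per cell cannot be told apart.

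Ptdsr is now named Jmjd6. The product was at first taken for a receptor of phosphatidylserine, the lipid that dying cells expose to the cells that engulf them. It is a nuclear enzyme of the Jumonji C (JmjC) oxygenase family, which uses iron and 2-oxoglutarate to add oxygen to its substrates and hydroxylates lysines of splicing proteins such as the U2AF large subunit. Mice without it have been described to die around birth, with defects of organs that include eye, lung, intestine, kidney and brain. E12.5 is a stage at which these organs are being laid down and the fetal liver is the main site of blood formation.

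The values are log2 ratios as deposited, after each array was centred on its probe median. A value of 1 is a ratio of 2, and 0 is an equal signal in both channels. Before centring, the array medians in numerical order were -0.085, -0.126, 0.033, -0.218, -0.161, -0.119, -0.204, 0, 0.941, 0.887, -0.053 and 0.083, so arrays 9 and 10 stood apart. These 2 arrays also had the fewest values, 13113 and 12722 of 20355 probes against 14397 to 19576 on the other 10, and the widest spread, with interquartile ranges of 2.15 and 2.01 against 0.54 to 1.61. The scale is log2, but the centring and normalisation used by the submitters and the direction of the ratio are not given. Values over 12 from 0, which were set aside, were all positive where the mutant RNA carried Cy5 (6 arrays) and all negative where it carried Cy3 (6 arrays). If the ratio is mutant over wild type on every array, the lower signal of these values was in Cy3. If it is Cy5 over Cy3, the lower signal was in the control pool. The direction is not settled by these values. Every sign below is that of the deposited value.

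Jmjd6 lay below 0 on 10 of the 12 arrays. With the mutant in Cy5 its values were -0.30, -0.45, -1.73, -1.60, -0.58 and 1.69 on arrays 1, 2, 5, 6, 9 and 10. With the mutant in Cy3 they were -2.49, -3.88, 0.70, -0.57, -1.53 and -0.17 on arrays 3, 4, 7, 8, 11 and 13. Array 10 in the first set and array 7 in the other were the arrays above 0. On array 10 the value came from a single probe, and Rnf2 and Mlxip had the same value there, 1.685. Over both probes, 30% of the values of Jmjd6 were close to a ratio of small whole numbers, as defined below, against 15.9% over all genes. The orientations overlapped over most of their range. The mean was -0.49 ± 1.23 (SD, n = 6) in the Cy5 orientation and -1.33 ± 1.67 (SD, n = 6) in the Cy3 orientation. An exact permutation test found no difference between the orientations beyond the spread of the arrays (difference 0.83, two-sided p = 0.383 over 924 arrangements).

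The fitted mean over both orientations was -0.91 ± 0.39 (SE, n = 12), with a limma p adjusted over all genes of 0.833. Flipping the signs of the 12 array values in all 4096 ways, an exact permutation test of this gene alone gave a two-sided p of 0.0498. Without array 4 the fitted value was -0.65, and without array 10 it was -1.13. If the deposited sign was not turned on the swapped arrays, the value is 0.42 ± 0.39 (SE), which is above 0. Both probes of the gene passed the filter, with means of -0.71 ± 1.74 (SD, n = 10) and -1.20 ± 1.58 (SD, n = 10). The first probe was below 0 on 8 of 10 arrays and the other on 9 of 10. The positions of these probes relative to the deleted part of the gene are not given, and a probe outside that part would not check the labels.

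**Figure D1:**
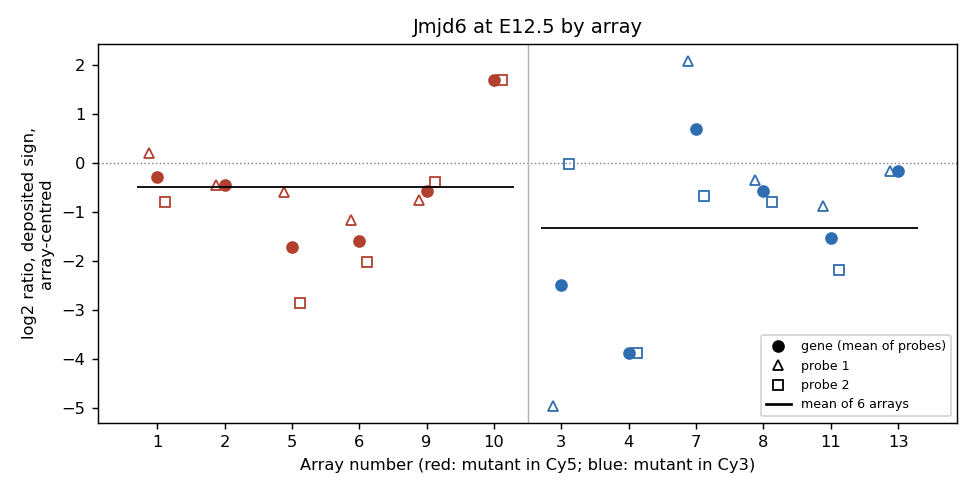
Log2 ratio of Jmjd6 (y axis, in the deposited sign, array centred on its median) on each of the 12 arrays at E12.5, by dye orientation. Filled circles are the mean of both probes, open symbols the single probes and black lines the means of 6 arrays. 10 of the filled circles lie below 0, and arrays 7 and 10 lie above it at 0.70 and 1.69.

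No gene passed the test of the mean over both orientations. Of 8089 genes tested with limma, 0 (0%) had an adjusted p under 0.05, and 473 (5.85%) had an unadjusted p under 0.05, of which 186 (2.3%) lay above 0 and 287 (3.55%) below. The smallest adjusted p was 0.110. More genes lay below 0 (4468, 55.2%) than above (3621, 44.8%), and the median of all fitted values was -0.05. Fitted values over 1 were found for 101 genes (1.25%) and values under -1 for 205 (2.53%). Turning the sign on the swapped arrays put 3678 genes (45.5%) above 0 and 4411 (54.5%) below, with a median of -0.04. The 95% interval of the fitted value lay wholly within 1 of 0, a ratio of 2 either way, for 3944 genes (48.8%). For the remaining genes the arrays could not bound the change within that size, whatever the fitted value.

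The 2 dye orientations had little in common across genes. Over 7990 genes with 3 or more values in each, the mean of the Cy5 and that of the Cy3 orientation had a Spearman correlation of -0.0460, and 50.4% of genes lay on the same side of 0. Among 1567 genes with 2 probes, the probes of a gene had a correlation of 0.0365 and lay on the same side for 53.1%. Between pairs of arrays the correlations over probes were low too. They ran from -0.0856 to 0.186 over the 15 pairs with the mutant in Cy5, from -0.145 to 0.0994 over the 15 pairs with it in Cy3, and from -0.160 to 0.157 over the 36 pairs of opposite orientation. With the mutant in Cy5, all pairs among arrays 1, 2, 5 and 6 were above 0 (0.121 to 0.186), as was 9 with 10 (0.180). All pairs between these 2 sets were below 0 (-0.0856 to -0.0406). Array 13, with the mutant in Cy3, was at 0.157 and 0.105 with arrays 9 and 10. It was below 0 with arrays 1, 2, 5 and 6 (-0.160 to -0.0735). Array 11, also with the mutant in Cy3, was above 0 with arrays 1, 2, 5 and 6 (0.0583 to 0.107). With arrays 9, 10 and 13 it was at -0.0770, -0.0391 and -0.145. The cause was not tested. These values are descriptions across probes or genes, which are not independent, of arrays that share the control pool.

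**Figure D2:**
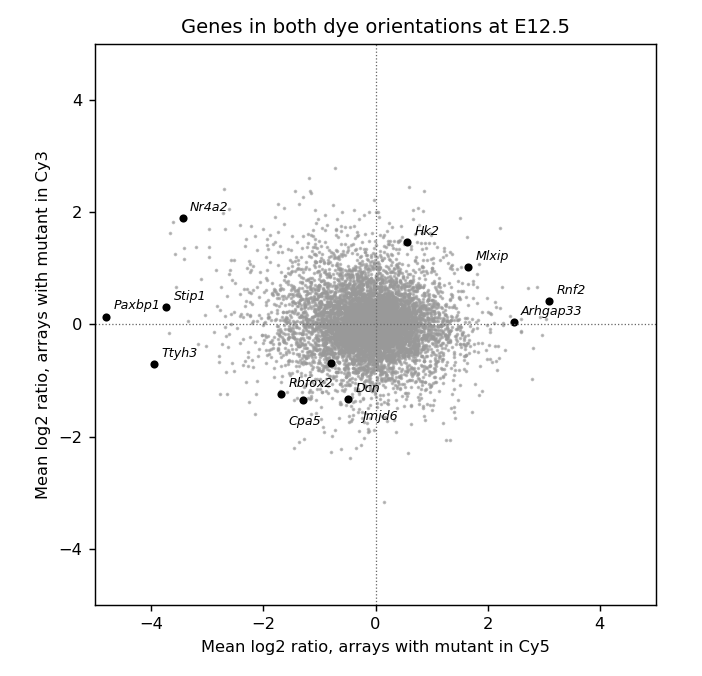
Mean log2 ratio of each gene over Cy5-labelled mutant samples (x axis) against its mean over Cy3-labelled ones (y axis), both in the deposited sign. The cloud has no slope to speak of (Spearman correlation -0.0460 over 7990 genes).

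The 12 genes above 0 with the smallest unadjusted p had adjusted p-values from 0.433 to 0.794 (limma). Rnf2, a ubiquitin ligase of Polycomb repressive complexes, led them at 1.76 ± 0.37 (SE, n = 10), with a lowest array value of -0.58, a median of 1.21 and a highest of 5.45. Its mean was 3.10 on 4 arrays of the Cy5 orientation and 0.42 on 6 of the Cy3 orientation, so the fitted value rested mainly on the first set. Arhgap33 showed the same split, with means of 2.46 on 4 arrays and 0.03 on 6.

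Rpa1, a subunit of the single-stranded DNA binding complex, had means of 1.80 and 0.39 in the Cy5 and Cy3 orientations, and Lamc3, a laminin chain, 2.25 and 0.67. All 12 genes of the set had means above 0 in each orientation. Mlxip, a glucose-responsive transcription factor, had a fitted value of 1.34 ± 0.33 (SE, n = 10), and its 10 array values ran from 0.21 to 3.16, all above 0, though without array 9 it was at 0.64, from 1 probe. Hk2, the hexokinase that starts glycolysis, was at 1.02 ± 0.26 (SE, n = 11), from -0.14 to 2.11 and above 0 on 9 of 11 arrays. H2az1, a histone H2A variant, was at 1.06 ± 0.30 (SE, n = 12), from -0.70 to 2.63 and above 0 on 9 of 12. Zfp593 was at 0.92 ± 0.25 (SE, n = 8), with all 8 values between 0.20 and 1.50. The others were Lamc3 at 1.46, Chid1 at 1.30, Mdh1, the cytosolic malate dehydrogenase, at 1.28, Rpa1 at 1.10, Otud4, a deubiquitinase, at 0.94, and Myo1g, a myosin of blood cells, at 0.93. With the sign turned on swapped arrays, Hk2, H2az1, Chid1 and Myo1g lay below 0.

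The 12 genes below 0 with the smallest p reached larger fitted values, and 6 of them had values on only 2 or 3 arrays of the Cy5 orientation. Rab3gap1, a regulator of the Rab3 vesicle GTPase, had the largest at -2.85 ± 0.36 (SE, n = 8, limma adjusted p = 0.110). It was measured on 2 arrays with the mutant in Cy5, at -4.28 and -6.82, while its 6 values with the mutant in Cy3 had a mean of -0.15. Paxbp1, which binds Pax3 and Pax7, had means of -4.81 on 4 arrays and 0.14 on 6. Stip1, a cochaperone that links Hsp70 and Hsp90, had means of -3.73 on 3 arrays and 0.30 on 5. Ttyh3 was at -2.33 (SE 0.39), Alox12e, a lipoxygenase, at -1.76 (SE 0.32), Tcp11x2 at -1.64 (SE 0.32) and Vsig8 at -1.50 (SE 0.33), each with 3 arrays in the Cy5 orientation.

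Evl, an actin regulator of the Ena/VASP family, lay below 0 on all 8 arrays that measured it. Its values ran from -3.50 through a median of -1.98 to -0.09, and its fitted value was -1.67 ± 0.31 (SE, n = 8, limma adjusted p = 0.433). Sdc1, the cell surface proteoglycan syndecan 1, was below 0 on 10 of 11 arrays at -0.91 ± 0.21 (SE), with means of -1.56 in the Cy5 and -0.26 in the Cy3 orientation. BC031181 was at -1.95 ± 0.46 (SE, n = 9) and below 0 on 8 of 9 arrays. The set was completed by Txndc12, a thioredoxin of the endoplasmic reticulum, at -1.49 and Cldn11, a claudin of tight junctions, at -1.11. Without array 10, Rab3gap1 and BC031181 passed the threshold, both with a limma adjusted p of 0.0498, at -2.85 and -2.47, and 2 genes in all passed. Array 10 held no value of Rab3gap1.

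**Figure D3:**
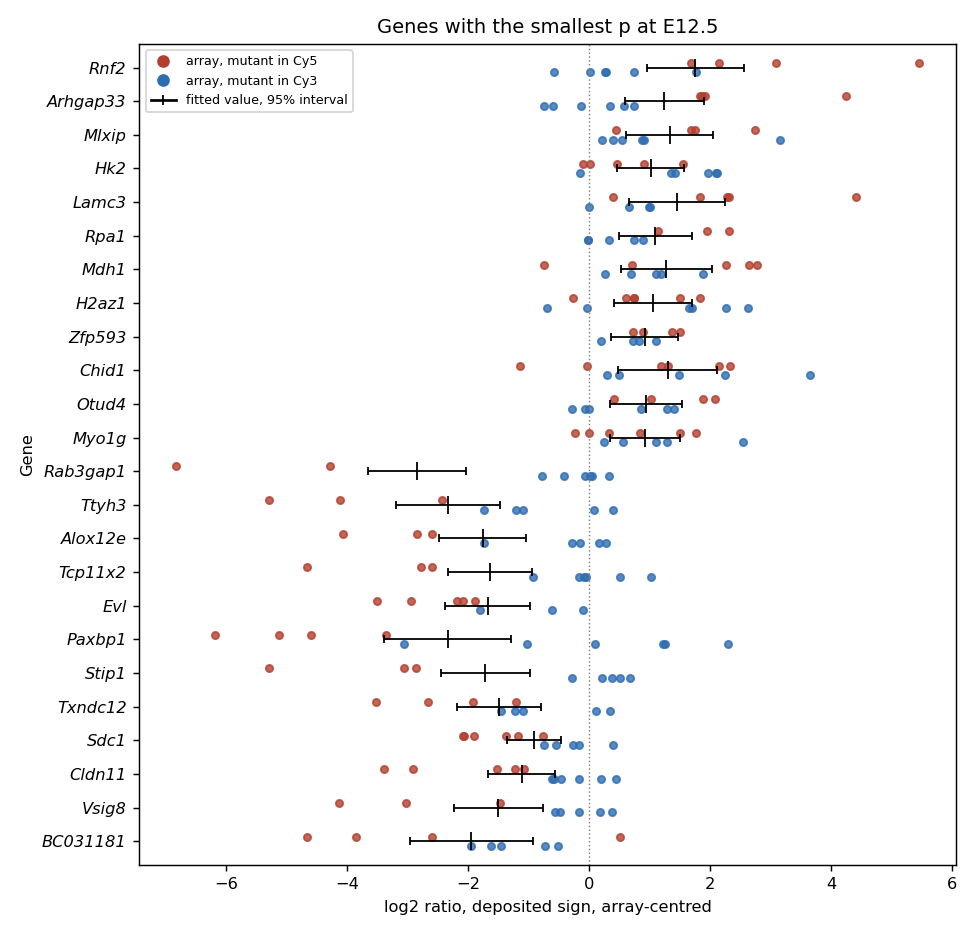
Log2 ratios on single arrays (points, coloured by dye orientation) of the 12 genes above 0 and the 12 below 0 with the smallest unadjusted p, with the fitted value and its 95% interval (black bars). For Rab3gap1, Paxbp1 and Stip1 the low values come from arrays whose mutant RNA carried Cy5, while the Mlxip points all lie above 0.

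Few genes lay on the same side of 0 on every array. Among 2394 genes with a value on all 12 arrays, 0 (0%) lay above 0 on all and 5 (0.209%) below on all. Among 5554 genes with a value on 10 or more arrays, 2 (0.036%) were above 0 and 11 (0.198%) below on every array that measured them. None of the 13 passed the test. The 5 genes below 0 on 12 of 12 arrays included 2 of the extracellular matrix. Dcn, the collagen-binding proteoglycan decorin, had its lowest value at -2.09, a median of -0.53 and its highest at -0.03, with a fitted value of -0.74 ± 0.22 (SE, n = 12, limma adjusted p = 0.794). Mfap2, a glycoprotein of the elastic microfibrils, ran from -2.60 through -0.43 to -0.15, with a fitted value of -0.69 ± 0.23 (SE, n = 12).

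The other 3 genes below 0 on all 12 arrays have unlike roles. Il6st, the gp130 receptor chain shared by cytokines of the interleukin 6 family, ran from -1.57 through -0.41 to -0.07, with a fitted value of -0.63 ± 0.20 (SE). Sez6, a membrane protein of neurons, ran from -2.07 through -0.51 to -0.11, with -0.81 ± 0.23 (SE). Dnajc25, a protein with a DnaJ domain, ran from -4.22 through -0.50 to -0.02, with -0.75 ± 0.32 (SE), its lowest value on array 10. Dcn, Mfap2, Il6st and Sez6 had no value within 0.001 of a ratio of whole numbers up to 10. Each array was first shifted by the amount that gave it the most such values. At that shift such values made up 36.3% and 51.5% of arrays 9 and 10 and 9.33% to 20.8% of the others. The median share over all shifts tried was 0.939% to 2.50% by array. Over all genes the share was 15.9%. It was 44.4% for Lamc3, 37.5% for Rpa1 and Zfp593, 36.4% for Cldn11, 30% for Mdh1 and for Jmjd6, and 27.3% for Cpa5. For Jmjd6 such values were 1 of 10 of the first probe and 5 of 10 of the other. With such values removed, Jmjd6 was at -0.60 (n = 9). Rab3gap1, Paxbp1, Stip1, Alox12e, Vsig8 and Hk2 held none. Without arrays 9, 10 and 13 the fitted values of Dcn, Mfap2, Il6st and Sez6 were -0.45, -0.46, -0.43 and -0.58, and that of Dnajc25 was -0.35.

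Cpa5, a carboxypeptidase, lay below 0 on 11 of 11 arrays, from -4.04 to -0.11, at -1.31 ± 0.36 (SE). Wipf1, which binds the actin regulator WASP, was also below 0 on 11 of 11, at -0.53 ± 0.19 (SE), as were Plekhn1 at -0.43 ± 0.20 (SE) and Alb, the serum albumin made by liver and yolk sac, at -0.28 ± 0.19 (SE). The median of Alb was -0.11, so most arrays were close to 0. G3bp2, an RNA-binding protein of stress granules, was below 0 on 10 of 10 arrays at -1.04 ± 0.27 (SE), and its probes were at -0.40 and -1.25. Without array 1 it rested on the first probe alone, at -0.40. Ctxn1, outside the naming rule and named here after its values were seen, completed the 11 at -0.27 ± 0.19 (SE, n = 10). Above 0 on 10 of 10 arrays were Mlxip, whose probes were at 0.64 and 1.63, and Mpg, a DNA repair glycosylase, at 0.24 ± 0.21 (SE) with a median of 0.12, and at 0.12 without array 10. With the sign turned on swapped arrays, Cpa5, Wipf1, Plekhn1, Alb, Sez6 and Ctxn1 lay above 0.

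**Figure D4:**
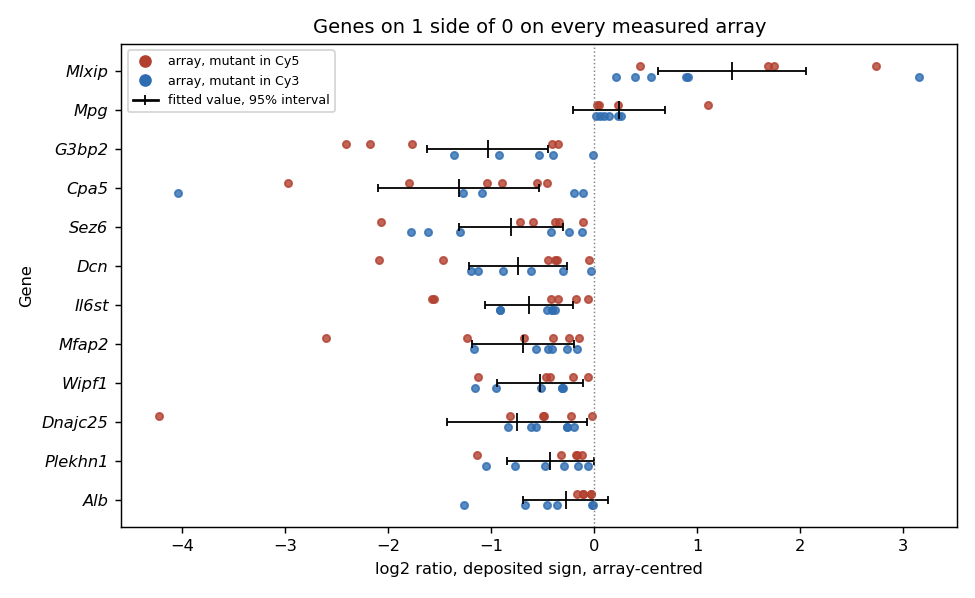
Log2 ratios on single arrays (points, coloured by dye orientation) of genes that lay on the same side of 0 on every array, out of 10 or more, that measured them, with the fitted value and its 95% interval (black bars). Dcn, Mfap2, Il6st, Sez6 and Dnajc25 were measured on all 12 arrays, and many of their points lie close to 0.

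The orientation term of the fit is 0.5 of the difference between the orientations, and it is the mutant ratio if the deposited sign was not turned on the swapped arrays. On that term 0 of 8089 genes (0%) had a limma adjusted p under 0.05, and 601 (7.43%) had an unadjusted p under 0.05, of which 208 (2.57%) lay above 0 and 393 (4.86%) below. Nr4a2, a nuclear receptor needed by dopamine neurons, had a term of -2.67, from means of -3.44 on 4 arrays and 1.90 on 4. C030006K11Rik had -2.73 and Snx29, a sorting nexin, -2.34, and these 3 had a limma adjusted p of 0.177, as had Stip1 at -2.02. Rab3gap1 completed this set at -2.70 (limma adjusted p = 0.174). In the other direction were Ptpn7, a lymphocyte phosphatase, at 1.26, Has2, which makes hyaluronan, at 1.05, Tex15, a germ cell protein, at 1.89, Ripk3, the kinase of necroptosis, at 1.40, and Arhgap33 at 1.21, each with a limma adjusted p of 0.345.

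Groups of genes were described by the counts of their measured members and the median of their fitted values, beside the median of -0.05 and the 44.8% above 0 over all genes. No member of any of the 35 groups passed the test, on a background of 0%. Members with an unadjusted p under 0.05 are counted against a background of 5.85%. In hepatocytes and yolk sac 2 were above 0 and 3 below, and in neurons and oxidative phosphorylation 1 and 3 each. Heart muscle had 1 and 2, collagens and matrix 2 and 2, and protein folding and stress 0 and 3. Macrophages, skin, and decidua and placenta had 0 and 2 each. Other groups with no count given below had at most 1 in each direction. On the swapped arrays the sign may have to be turned, and 14 of the 35 group medians then changed sides, 8 to above 0 and 6 to below, so no direction of a group is settled.

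The JmjC and 2-oxoglutarate oxygenases, the enzyme class to which Jmjd6 belongs, were centred close to all genes. Of 26 measured members, 11 lay above 0 and 15 below, with a median of -0.05, and Jmjd6 was the 1 member with an unadjusted p under 0.05. Kdm5a, a demethylase of histone H3, was at 0.41 ± 0.25 (SE, n = 12) and above 0 on 8 of 12 arrays. P4ha2, a collagen prolyl hydroxylase, was at 0.89 ± 0.46 (SE, n = 9), Plod3, a collagen lysyl hydroxylase, at -0.49 ± 0.25 (SE, n = 11), and Egln2, a prolyl hydroxylase that acts on the hypoxia factors, at -0.39 ± 0.23 (SE, n = 12). Each of these 4 genes had array values on both sides of 0.

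Partners of Jmjd6 and the wider splicing machinery were likewise divided. Of 11 measured partners, 5 lay above 0 and 6 below, with a median of -0.03. Srrm1, a splicing coactivator rich in serine and arginine, was at 1.14 ± 0.40 (SE, n = 10) and above 0 on 8 of 10 arrays, with a mean of 1.14 in each orientation. Ccnt1, the cyclin of the elongation factor P-TEFb, was below 0 on 10 of 11 arrays at -0.66 ± 0.48 (SE), its 1 value above 0 being 3.54. Srsf11, a splicing regulator, was at 0.17 ± 0.26 (SE, n = 12), and between 0.052 without array 13 and 0.37 without array 9. U2af1, the small subunit of U2AF, was at -0.40 ± 0.36 (SE, n = 12), with 6 values on each side of 0, and at -0.11 without array 9.

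Of 76 measured splicing genes, 38 lay on each side of 0 with a median of 0.0059, and 6 had an unadjusted p under 0.05, 4 above 0 and 2 below. Rbfox2, a regulator of alternative splicing, was below 0 on all 9 arrays that measured it. Its values ran from -4.04 through -0.83 to -0.18, and its fitted value was -1.46 ± 0.39 (SE, limma adjusted p = 0.794). Ptbp1, a repressor of exons, was at -0.58 ± 0.26 (SE, n = 12), with means of -0.14 in the Cy5 and -1.02 in the Cy3 orientation, and at -0.32 without array 11. Thoc1, of the complex that couples transcription to mRNA export, was at 0.51 ± 0.18 (SE, n = 11), and Snrnp200, a helicase of the U5 particle, at 0.92 ± 0.35 (SE, n = 11), each above 0 on 9 of 11 arrays. For Thoc1 the means were 0.94 in the Cy5 and 0.09 in the Cy3 orientation.

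Genes of cell death, engulfment and macrophages bear on the role first given to Ptdsr. Of 31 apoptosis genes, 15 lay above 0 and 16 below, with a median of -0.08 and 2 in each direction at an unadjusted p under 0.05. Those above were Bnip3, a mitochondrial death protein, at 1.23 ± 0.43 (SE, n = 8) and Bcl2l11, the BH3 protein Bim, at 0.85 ± 0.36 (SE, n = 12). Below 0 were Casp1, the caspase of inflammasomes, at -1.71 ± 0.51 (SE, n = 8) and Bag3, a cochaperone with an antiapoptotic role, at -0.59 ± 0.26 (SE, n = 12). Casp1 had 2 arrays with the mutant in Cy5, and with the values over 12 kept it lay at 0.09.

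Of 26 engulfment genes, 10 lay above 0 and 16 below, with a median of -0.08 and 0 at an unadjusted p under 0.05. Stab1, a receptor for phosphatidylserine, was at 0.47 ± 0.33 (SE, n = 9), or 0.14 without array 2, and Gas6, which bridges phosphatidylserine to receptors of the TAM family, was at -1.03 ± 0.64 (SE, n = 8), with means of -0.14 in the Cy5 and -1.92 in the Cy3 orientation. Of 24 macrophage genes, 12 lay on each side, with a median of -0.03. Cd68, a lysosomal protein of macrophages, was below 0 on 8 of 11 arrays at -0.83 ± 0.28 (SE), while Lyz2, their lysozyme, was above 0 on 9 of 12 at 0.27 ± 0.18 (SE). Cyba, a subunit of the phagocyte oxidase, was at -2.07 ± 0.56 (SE, n = 8) from means of -4.07 on 2 arrays and -0.07 on 6.

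Blood and liver genes were near the median of all genes. Of 24 red cell genes, 9 lay above 0 and 15 below (median -0.09). Hba-a1, an adult alpha globin whose near-identical copy its probes may not tell apart, was below 0 on 11 of 12 arrays, from -1.42 through -0.43 to 0.33, at -0.45 ± 0.19 (SE, limma adjusted p = 0.833). Car2, the carbonic anhydrase of red cells, was at 0.16 ± 0.19 (SE, n = 12). Of 46 genes of hepatocytes and yolk sac, 19 lay above 0 and 27 below (median -0.08). Apoa1, the main protein of high-density lipoprotein, was at -0.97 ± 0.39 (SE, n = 8), F7, coagulation factor VII, at -1.08 ± 0.32 (SE, n = 8) and Serpinf1 at -0.82 ± 0.33 (SE, n = 10), while the plasma proteins Fetub and Ambp were at 1.06 ± 0.43 (SE, n = 10) and 0.88 ± 0.38 (SE, n = 9). The arrays with the mutant in Cy3 alone gave F7 at 0.08.

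Organs in which defects of the mutants have been described were looked at next. Of 22 genes of lens and eye, 12 lay above 0 and 10 below (median 0.04). Pax6, the transcription factor of eye formation, was above 0 on 7 of 8 arrays at 0.96 ± 0.52 (SE), and Rlbp1, a retinal binding protein, was at -0.70 ± 0.26 (SE, n = 8). Lung and airway had 8 above and 14 below (median -0.22), with Tgfb3, a growth factor needed for lung and palate formation, below 0 on 8 of 9 arrays at -0.69 ± 0.32 (SE). Kidney had 7 above and 8 below (median -0.01). Intestine and epithelium had 6 above and 11 below (median -0.25), with Epcam, an epithelial adhesion molecule, below 0 on 10 of 12 arrays at -0.58 ± 0.24 (SE). The mean of Epcam was -1.08 in the Cy5 and -0.09 in the Cy3 orientation. After the sign was turned on the swapped arrays, the median of lens and eye was -0.11 and that of lung and airway 0.036. That of kidney was then -0.18 and that of intestine and epithelium 0.037.

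The groups of skin, muscle and skeleton had more members below 0 than above in the deposited sign. Of 20 skin genes, 4 lay above 0 and 16 below (median -0.25), with Krt10, a keratin of the outer epidermis, at -0.33 ± 0.20 (SE, n = 12). In heart muscle 6 lay above and 15 below (median -0.20), in skeletal muscle 8 and 17 (median -0.17), and in cartilage and bone 6 and 17 (median -0.26). Tnni1, the troponin I of slow muscle, was at -0.66 ± 0.28 (SE, n = 11), and Myh3, the embryonic myosin heavy chain, was below 0 on 9 of 10 arrays at -0.63 ± 0.27 (SE), or -0.40 without array 9. Members above 0 included Slc8a1 of heart muscle at 0.75 ± 0.31 (SE, n = 8) and Tnnc2 of skeletal muscle at 0.73 ± 0.35 (SE, n = 8). Their means were 1.35 and 1.66 in the Cy5 and 0.15 and -0.19 in the Cy3 orientation. In skin, Dsg1a was at 0.70 ± 0.45 (SE, n = 8), or -0.47 with the sign turned on swapped arrays. In cartilage, Comp was above 0 on all 8 arrays that measured it, from 0.09 to 4.20, at 1.30 ± 0.48 (SE), while Col11a2, a fibrillar collagen chain, was at -0.57 ± 0.24 (SE, n = 12). With the sign turned on swapped arrays, Tnni1 lay above 0, and the medians were 0.13 for cartilage and bone, -0.15 for skin, -0.15 for heart muscle and -0.096 for skeletal muscle. The median of the orientation means was -0.45 in the Cy5 and -0.081 in the Cy3 orientation for heart muscle, and -0.28 and -0.044 for skin.

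Neurons had 11 measured genes above 0 and 24 below (median -0.17, or -0.031 with the sign turned on swapped arrays). Gap43, a growth cone protein, was below 0 on 11 of 12 arrays, from -1.46 through -0.71 to 1.31, at -0.61 ± 0.23 (SE). Stmn2, a tubulin-binding protein of growing axons, was at -0.56 ± 0.23 (SE, n = 12), with means of -0.91 in the Cy5 and -0.20 in the Cy3 orientation, and at -0.10 without array 10. Celf4, a neuronal RNA-binding protein, was at -0.89 ± 0.33 (SE, n = 11) and Reln, the matrix protein that positions migrating neurons, at 0.90 ± 0.35 (SE, n = 9). Neural progenitors were evenly divided, with 14 above and 13 below (median 0.03), and neural crest and glia had 6 above and 9 below (median -0.03). The Hox genes had 6 and 4 (median 0.02), and vessels and endothelium had 13 and 12 (median 0.0054).

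Tissue of decidua and placenta and the sex of the embryos were looked at as possible differences between the RNA samples. Of 7 measured genes of decidua and placenta, 2 lay above 0 and 5 below (median -0.32), and their median was lowest on array 10, at -1.10 relative to all genes there. Dcn belongs to this group as well, and Psg16, of a family of similar pregnancy-specific glycoproteins, was below 0 on 9 of 9 arrays at -1.35 ± 0.52 (SE). The 2 members above 0 were Psg19, of the same family, at 0.22 ± 0.31 (SE, n = 9) and Igfbp1 at 0.06 ± 0.32 (SE, n = 11). Igfbp1 was above 0 on 8 of 11 arrays. Of 4 measured genes that differ between the sexes, 1 lay above 0 and 3 below (median -0.15). Zfy1, of the Y chromosome, was at -0.55 ± 0.63 (SE, n = 9), from -3.94 to 2.66. Of the X genes, Kdm5c was at -0.29, Ddx3x at -0.0095 and Utp14a at 0.25. Genes of the X and of the Y can differ between the sexes in opposite directions, so the pooled count and median do not describe sex. The part of either group in the other values was not tested.

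Genes of growth and metabolism were the last to be described. Of 65 genes of cell cycle and replication, 37 lay above 0 and 28 below (median 0.03). At an unadjusted p under 0.05 were 4 above 0 and 0 below, against 2.3% above and 3.55% below over all genes. Pcna, the sliding clamp of DNA replication, was among these 4 at 1.78 ± 0.55 (SE, n = 9), from -2.39 through 1.38 to 3.95. Of 18 genes of the p53 response, 4 lay above 0 and 14 below (median -0.26), with 0 at an unadjusted p under 0.05, and Zmat3, a target of p53, had 6 values on each side. Of 51 ribosomal protein genes, 14 lay above 0 and 37 below (median -0.15). Relative to all genes of the same array, their median was -1.49 on array 9 and 0.49 on array 6. Without arrays 9, 10 and 13, with 6 or more values per probe, the median of their fitted values was 0.06. Among them Rps18 was at 2.02 ± 0.60 (SE, n = 8) and Rps27 at -0.50 ± 0.25 (SE, n = 11), both from families with many pseudogene copies.

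Oxidative phosphorylation had 17 members above 0 and 34 below (median -0.07). Cox5a, a subunit of cytochrome oxidase, was below 0 on 10 of 12 arrays at -0.63 ± 0.23 (SE), Uqcrq and Cyc1, of complex III, were at -0.60 ± 0.25 (SE, n = 11) and -1.06 ± 0.34 (SE, n = 8), and Ndufc2, of complex I, was at 0.74 ± 0.29 (SE, n = 12). Hypoxia and glycolysis had 14 members on each side (median -0.00016), Hk2 and Bnip3 being the 2 with an unadjusted p under 0.05. Collagens and matrix had 15 above and 22 below (median -0.06), with Col4a1, a chain of basement membrane collagen, at 0.62 ± 0.23 (SE, n = 12), or 0.13 without array 9, and Col3a1, a fibrillar collagen, at -1.71 ± 0.49 (SE, n = 8). The mean of Col3a1 was -3.03 on 4 arrays of the Cy5 orientation and -0.38 on 4 of the Cy3 orientation.

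The remaining groups had medians from -0.08 to 0.07, the highest of any group, against -0.05 for all genes. Translation factors had 19 members above 0 and 13 below (median 0.07), with Eif4g3, a scaffold of translation initiation, at 0.71 ± 0.24 (SE, n = 12), or 0.33 without array 10. Protein folding and stress had 14 and 18 (median -0.08), immediate early genes 8 and 9 (median -0.01), and the Wnt, Hedgehog, BMP and Notch pathways 18 and 24 (median -0.07). Cholesterol synthesis had 8 and 9 (median -0.0059) and proteasome and ubiquitin 13 and 12 (median 0.03).

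**Figure D5:**
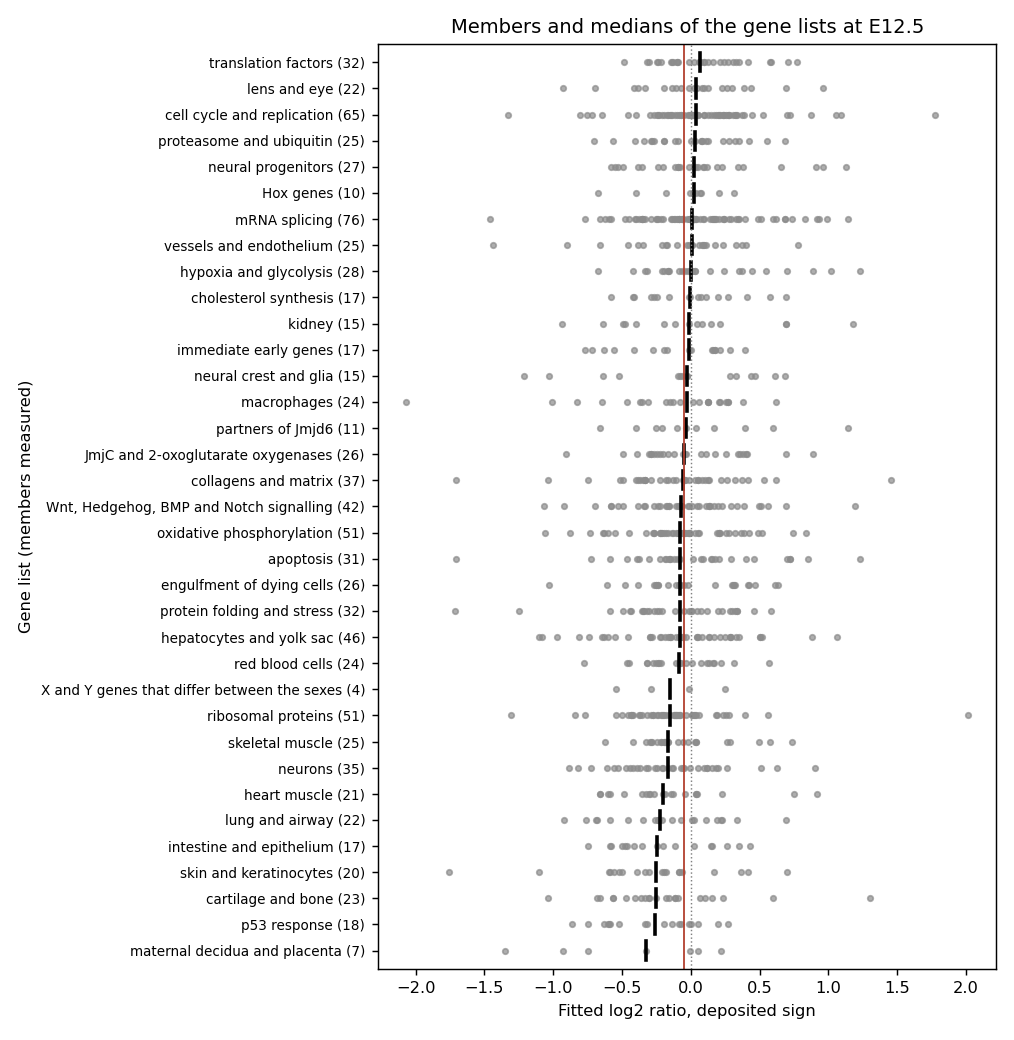
Fitted log2 ratios of the measured members of each gene group (points, x axis in the deposited sign), with the group median (black bar) and the median of all genes tested (red line). The medians lie between -0.32 for decidua and placenta and 0.07 for translation factors, and members of every larger group fall on both sides of 0.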

How the data were processed

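The authors deposited 1 log2 ratio per probe and array. Per the labels' protocols, total RNA (20 ug per label) of mutant embryos and of a pool of 6 control animals was hybridised together with dye swaps. The sources used here name no scanner, background correction or normalisation, spot intensities were not used, and the precision is limited by the 12 arrays. From the deposited log2 ratios, values over 12 from 0 were treated as missing, each array was centred on its probe median, and probes with 8 or more values were averaged per gene symbol.

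Of 20355 probes, 14030 had 1 symbol, 5 had several and 6320 had none. Symbols were updated by gene identifier for 13994 probes. No genome build was used for the probes, so no positions are given. This left 8089 of 9930 genes, 6111 of them with 1 probe. The filter on missing values is on the number of values, counted after those over 12 from 0 were set to missing. To that extent it depends on their level, and the sign of the values removed follows the dye orientation. With these values kept at the array's extreme, 8362 genes were tested and 2 of 97 named genes changed side.

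Each gene was fitted in R 4.3.3 by limma 3.58.1 to a mean over orientations and a dye orientation term, and p-values were adjusted by the Benjamini-Hochberg method over all genes (threshold 0.05). With the orientations unequally filled, the fitted value differs from the mean of the arrays. The script was tested on simulated data. All intervals are 95% intervals of the fit. Array-level values of Jmjd6 were tested with exact two-sided permutation tests.

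Genes named were Jmjd6, the 12 per direction with the smallest p, those on 1 side of 0 on 10 or more arrays (at most 10 per direction), the 5 per direction with the smallest p of the orientation term, and up to 3 members per direction of each gene list by smallest p. The comparison and the lists were chosen with earlier results of these data known. Alternatives varied the centring, scaling, dye term, probe filters, variance prior, sign, values over 12, low-number ratios and arrays left out.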

Additional observations from a re-analysis of the deposited data

Results flagged for a closer look

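The median of each gene group on each array, less the median of all genes on that array, was compared within each dye orientation, as was the value of Jmjd6. In 7 of 72 sets of 6 arrays, 1 array stood far from the other 5 by Dixon's criterion, which chance meets in about 1 of 20 sets. With the mutant in Cy5, array 9 had an apoptosis median of 0.43 against -0.14 to 0.07 on the others. Array 10 had a skeletal muscle median of 0.20 against -0.31 to -0.15, and a neural progenitor median of -0.65 against -0.05 to 0.27. Array 6 had a neural crest and glia median of -0.46 against 0.15 to 0.37. With the mutant in Cy3, array 4 had a macrophage median of -0.64 against -0.02 to 0.21. Array 7 had an oxidative phosphorylation median of 0.17 against -0.14 to -0.04. Array 13 had a translation factor median of -0.41 against 0 to 0.18.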

How the results depend on the processing

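The count of genes past the threshold was 0 for the mean over orientations and 0 for the orientation term, and it was 0 under every alternative run, except that 2 genes passed on the mean without array 10 (range 0 to 2 over the arrays left out). Without arrays 9, 10 and 13 the count was 0 of 8224 genes, with 725 at an unadjusted p under 0.05. Jmjd6 lay between -1.13 and -0.65 with 1 array left out and at 0.42 with the sign turned on the arrays with the mutant in Cy3. With the sign turned, the group medians that changed sides by the most were cartilage and bone (-0.26 to 0.13), intestine and epithelium (-0.25 to 0.037), lung and airway (-0.22 to 0.036), lens and eye (0.04 to -0.11) and collagens and matrix (-0.06 to 0.080). Leaving out 1 array moved the value of 20 of 97 named genes by over 1.5 times, none of them past the threshold, and besides those given with the results these were Has2 (-0.050 to 0.22), Car2 (0.11 to 0.25), Kdm5a (0.24 without array 5), P4ha2 (0.56 without array 2), Egln2 (-0.24 without array 9), Fetub (0.68 without array 5), Ambp (0.49 without array 9), Zmat3 (-0.26 without array 13) and Dnajc25 (-0.43 without array 10). The 97 include genes with a value on only 8 arrays, such as Rab3gap1, Stip1, Casp1 and Rps18. Under the filter of 8 values these were refitted only without an array that lacked them, so their values could not move. No paired analysis was possible because the tests compare the channels of each array within 1 age, and no groups with shared replicate numbers were compared. How far signal over background limits these values is unknown, since spot intensities were not used.

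The alternatives were looked at for 97 of the named genes, which left out Slc8a1, Tnnc2, Dsg1a, Psg19, Igfbp1, Zfy1, Kdm5c, Ddx3x and Utp14a. Among these 97 the following changed side. With the sign turned, these were H2az1 (-0.20), Snrnp200 (-0.22), Myo1g (-0.23), Chid1 (-0.33), Hk2 (-0.45), Pax6 (-0.46), Srsf11 (-0.55), Bcl2l11 (-0.56), Ccnt1 (0.012), Cpa5 (0.027), Plekhn1 (0.043), Hba-a1 (0.049), Zmat3 (0.061), Ctxn1 (0.065), Wipf1 (0.065), Sez6 (0.11), Tnni1 (0.18), Alb (0.19), Cd68 (0.22), Ptbp1 (0.44), Serpinf1 (0.67) and Gas6 (0.89). On the arrays with the mutant in Cy3 alone, these were Ptpn7 (-0.38), Ripk3 (-0.66), Has2 (-0.95), Tex15 (-0.98), Tcp11x2 (0.055), F7 (0.077), Paxbp1 (0.14), Stip1 (0.30), C030006K11Rik (1.83), Nr4a2 (1.90) and Snx29 (2.06). Those with the mutant in Cy5 alone turned Srsf11 (-0.38). Has2 was at -0.14 and Snx29 at 0.19 with arrays scaled to equal spread, and at -0.25 and 0.30 with no dye term. Snx29 was at 0.43 with 6 or more values per probe, and Eif4g3 at -0.077 with 10 or more. Casp1 was at 0.091 and Apoa1 at 0.29 with values over 12 kept. Has2 was at -0.024 without arrays 9, 10 and 13 and at -0.050 without array 9. The cause was not tested.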
